A study of Mus musculus with 30 samples.

Results

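Cell cultures labelled as mouse leg muscle were compared at 4 h and at 0 h. The comparison used the 12 arrays whose titles give the hour as 4 or 0, out of 30 arrays in the series: 3 replicates at each hour, each hybridised to an A chip and a B chip of an Affymetrix oligonucleotide set. The other arrays hold 12, 24 and 48 h. They entered the fits to estimate the spread, and those at 12 h served as a second neighbour of 4 h. Both groups are total RNA of mouse leg muscle cell culture and differ in the labelled hour alone. The labels give no strain, age, culture medium or treatment, no event that starts the clock, and no word on whether the replicates were separate cultures or animals. P-values therefore measure the scatter among these arrays and no more, and that scatter may be technical. The question the design addresses is which transcript levels differed within the first hours of the series.

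Cultured muscle precursor cells divide as myoblasts and, when they differentiate, leave the cell cycle, fuse into myotubes and build sarcomeres from embryonic and fetal isoforms. Several signalling systems answer within hours to a change of surroundings. Nrf2 raises glutathione synthesis and haem breakdown under oxidative stress, and metal-responsive Mtf1 raises the metallothioneins. Srebp2 raises the enzymes of cholesterol synthesis when membrane sterol is low, Atf4 raises amino acid synthesis and transport when amino acids are short, and Smads carry BMP signals to the Id genes.

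All values are array intensities, and a difference is 4 h minus 0 h on a scale of log2(intensity + pseudocount), with pseudocounts of 29 on A and 54 on B. The array median lay between 154.7 and 183.4 on the A chip, and between 220.0 and 256.2 on the B chip. The number of arrays, 3 per hour and chip, limits the precision, and the smallest two-sided p that an exact permutation test of 3 against 3 can give is 0.1. Limma, a linear model with a spread shared across probe sets, called none on either chip (0 of 13576 tested probe sets on A, 0%, and 0 of 13507 on B, 0%) at an adjusted p under 0.05, with 671 and 732 at an unadjusted p under 0.05. Replicate 3 stood apart at 0 h: on A its probe sets differed from those of replicates 1 and 2 by a median of 0.28 and 0.271 (absolute log2 difference), against 0.211 between replicates 1 and 2, and on B by 0.32 and 0.321 against 0.238. With replicate 3 as a batch term limma again called 0 (0%) on A and 0 (0%) on B, with 1398 and 1149 at an unadjusted p under 0.05. In replicates 1 and 2 alone limma called 24 A probe sets (0.177%) and 0 B probe sets (0%, with 1240 at an unadjusted p under 0.05). Below, a gene is said to have risen or fallen only where it passed in replicates 1 and 2, and its replicate 3 values stand beside it.

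The 24 probe sets called in replicates 1 and 2 stood for 21 genes and 1 unnamed probe set, 13 higher and 11 lower at 4 h. Genes of the oxidative stress list accounted for 6 of the 24 (Hmox1, Gclm, Gclc with 2 probe sets, Srxn1 and Mt2), all higher. Cholesterol synthesis accounted for 7 (Msmo1, Idi1, Cyp51, Fdft1, Fdps and Hmgcs1 with 2 probe sets), all lower. Dst, Tshz1, Xist, Fbxo32, Myh3, Sh3glb1 and Slc7a5 were the other named rises, and Mcm3, Tmem119 and Fads2 the other named falls. Replicate 3 moved the same way for 20 of the 24 and by less for 23, and for 9 of them the 3 arrays at 4 h did not overlap the 3 at 0 h. The 24 were picked by their change in replicates 1 and 2. That choice by itself favours a smaller change in replicate 3 and arrays without overlap. Over all genes, by the brightest probe set, 3.82% were higher and 5.67% lower without overlap. Counted by each gene's brightest probe set, replicates 1 and 2 gave 9 higher genes (0.0723% of 12446) and 7 lower genes (0.0562%). Whether the 4 h change in replicate 3 differed from that in replicates 1 and 2 was tested as an interaction. Limma called 2 A probe sets (0.0147%) and 0 B probe sets, with 519 and 751 at an unadjusted p under 0.05, and none of the 21 genes was among the called. Of the 21, 14 had further tested probe sets that were not called, 23 in all, of which 22 differed in the same direction. The exception was a probe set of Msmo1.

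**Figure D1:**
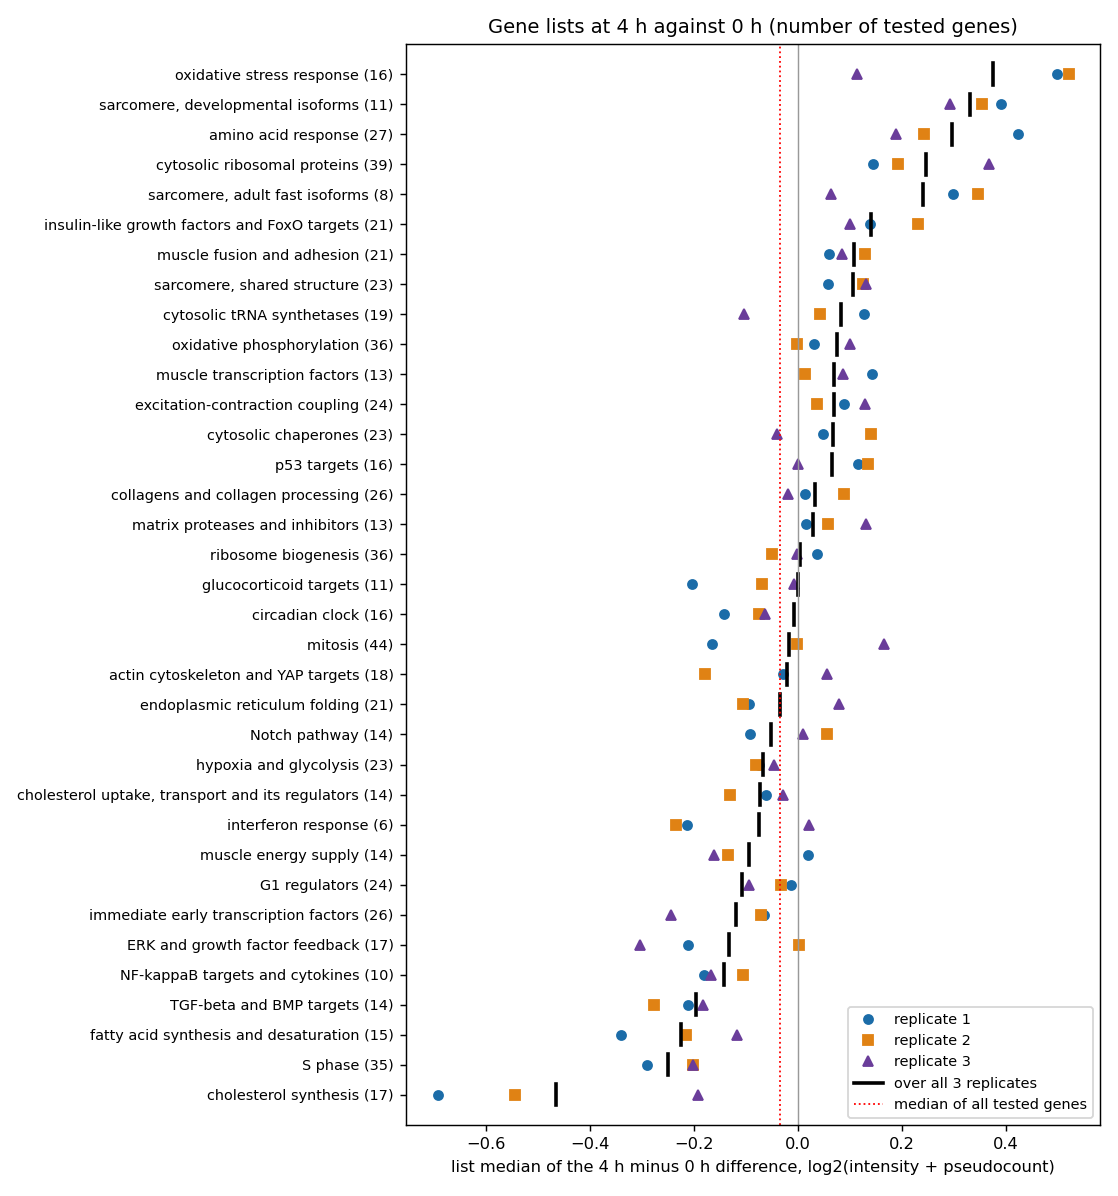
For each of 35 gene lists the plot gives the median difference between 4 h and 0 h, log2(intensity + pseudocount), in replicate 1 (circle), 2 (square) and 3 (triangle), with a bar for the fit over all 3 and the number of tested genes in brackets. The oxidative stress list lies highest at 0.38 and cholesterol synthesis lowest at -0.47, and in both replicate 3 lies closest to 0. Under quantile normalization the bars of the ribosomal protein, oxidative phosphorylation and p53 target lists fall below 0 and those of glucocorticoid targets, the circadian clock and mitosis rise above it.

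Genes of the oxidative stress response had higher levels at 4 h, led by haem oxygenase and by both subunits of the enzyme that limits glutathione synthesis. Of 16 tested genes 14 had higher means at 4 h, against 5379 of 12446 genes (43.2%), and the list's median difference was 0.38 against -0.03 over all genes. The arrays of both hours did not overlap for 5 of the genes, all higher, where 3.82% of all genes were higher and 5.67% lower without overlap. With replicate 3 as a batch term 9 were higher and 0 lower at an unadjusted p under 0.05, where 3.82% of all genes were higher and 5.39% lower. By replicate the list median was 0.50, 0.52 and 0.11.

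Hmox1, the enzyme that splits haem into biliverdin, iron and carbon monoxide, had intensities of 665, 562 and 269 at 0 h and 3748, 2538 and 622 at 4 h in replicates 1, 2 and 3. It rose by 2.28 ± 0.18 (SE) on the log2 scale in replicates 1 and 2 (limma adjusted p = 0.000237), the smallest adjusted p of that fit, and replicate 3 moved by 1.13 from a lower start. The 4 h array of replicate 3 lay within the range of the 0 h arrays, so the groups overlapped. Over all 3 replicates the mean went from 499 ± 205 (SD, n = 3) to 2303 ± 1576, a difference of 1.90 ± 0.69 (SE, limma adjusted p = 0.884, and 0.128 with the batch term). The interaction was -1.16 (adjusted p = 0.826), so a smaller change in replicate 3 was not shown. At 12 h the arrays held 2292, 2123 and 377, between the 0 h and 4 h values of the same replicate in each case.

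Gclm, the modifier subunit of glutamate-cysteine ligase, had 532, 650.2 and 898 at 0 h and 1644, 1827 and 1119 at 4 h, and every 4 h array lay above every 0 h array. The rise in replicates 1 and 2 was 1.51 ± 0.14 (SE, limma adjusted p = 0.000776), with 0.31 in replicate 3. Gclc, the catalytic subunit of the same enzyme, had 905, 912 and 967 at 0 h and 2189, 2083 and 1098 at 4 h, again without overlap, and rose by 1.21 ± 0.15 (SE, limma adjusted p = 0.00964). A second Gclc probe set had 519, 527 and 503 at 0 h and 1244, 1109 and 776 at 4 h and rose by 1.13 ± 0.15 (SE, adjusted p = 0.0109). A brighter Gclm probe set on the B chip had 665, 737 and 979.6 at 0 h and 1870.4, 1175 and 1450.4 at 4 h, again higher without overlap, and was not called (1.03 ± 0.23, adjusted p = 0.308). At 12 h Gclm stood at 1234, 1249 and 589 on A and Gclc at 1288, 1333 and 622, lower than at 4 h in every replicate. The second Gclc probe set had 956, 1161 and 413 at 12 h, lower than at 4 h in replicates 1 and 3 and higher in replicate 2. The Gclm probe set on the B chip had 1088, 1299 and 628 at 12 h, likewise lower in replicates 1 and 3 and higher in replicate 2.

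Srxn1, sulfiredoxin, which reactivates oxidised peroxiredoxins, was called on a probe set other than its brightest, with 321, 430.4 and 537 at 0 h and 1194, 1097 and 530.0 at 4 h. It rose by 1.55 ± 0.16 (SE, limma adjusted p = 0.00142) in replicates 1 and 2, and in replicate 3 both hours were level (-0.02). Its brightest probe set had 450.5, 515 and 589 at 0 h and 1051, 759.9 and 552 at 4 h and a difference of 0.85 ± 0.18 in replicates 1 and 2 that did not pass (adjusted p = 0.11). Txnrd1, cytosolic thioredoxin reductase, had 3472, 2944 and 4228 at 0 h and 4993, 4837 and 4790.1 at 4 h. For Fth1, the ferritin heavy chain that stores iron, the intensities were 10079.9, 11646 and 10091 at 0 h and 14015, 13486 and 14036 at 4 h. Neither passed (limma adjusted p = 0.102 and 0.437 in replicates 1 and 2), although in both all 4 h arrays lay above all 0 h arrays. Slc40a1, ferroportin, the exporter of iron and no member of the list, had 127, 146 and 107 at 0 h and 362, 328 and 148 at 4 h, with a difference of 0.91, no overlap and a step of 0.37 in replicate 3 (limma adjusted p = 0.884). Among the remaining genes of the list Nqo1 differed by 0.34, Gsr by 0.18, Gsta4 by 0.36 and Cat, catalase, by -0.36, the last being lower in replicates 1 and 3 and higher in replicate 2; none of these 4 was called.

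Mt2, a metallothionein that binds zinc and copper, had a change in replicate 3 that lay between those of replicates 1 and 2. Its intensities were 726, 826 and 1393 at 0 h and 2143, 1436 and 3138 at 4 h, with log2 differences of 1.52, 0.78 and 1.16 and no overlap. Its mean of 982 ± 359.9 (SD, n = 3) at 0 h stood beside 2239 ± 855 at 4 h, and the 12 h arrays were back at 943, 903 and 1233. Mt2 rose by 1.15 ± 0.19 (SE, limma adjusted p = 0.0379) in replicates 1 and 2, with adjusted p = 0.127 in the batch fit over all 3 replicates. Mt1, the neighbouring metallothionein, had 724, 974 and 1945 at 0 h and 1304, 1432 and 2049.8 at 4 h, a difference of 0.48 with overlapping groups. The list of 13 markers of macrophages and other blood cells, cells that also express Hmox1 and ferroportin, had 4 members bright enough to be tested, and its summed intensity was 794.9 to 1049.1 at 0 h and 702.6 to 1063.0 at 4 h. The brightest of its defining markers were Cd14, at 137.6 to 315, Csf1r, at 125 to 198, and Adgre1, at 92.1 to 190.3 over the 6 arrays, and among the dimmest were Ptprc, up to 25.1, and Itgam, up to 10.2. Their part in the result was not tested.

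**Figure D2:**
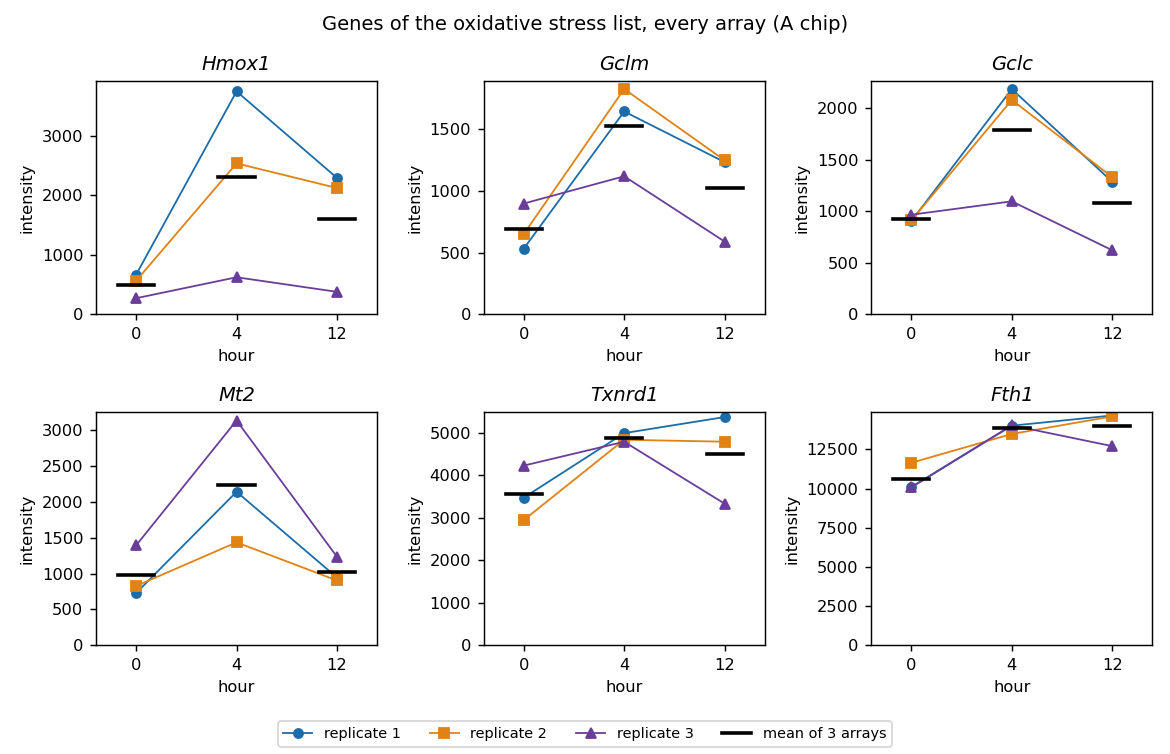
Intensity of 6 genes of the oxidative stress list on every A array at 0, 4 and 12 h, with a line for each replicate and a bar for the mean of 3 arrays, on linear axes from 0. Hmox1, Gclm and Gclc peak at 4 h in all 3 replicates with the smallest step in replicate 3, and Mt2 peaks at 4 h in all 3.

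Promoter windows from RefSeq (GRCm38.p6, 250 bases before to 50 after a start site) were searched on both strands for the antioxidant response element core TGACNNNGC and for the metal response element core, as TGCACNC and TGCGCNC. Windows were matched for 12 of the 16 genes, 15 windows in all. The antioxidant core was in 5 of the 15, those of Gclm, Mt2, Sod1, Srxn1 and Txnrd1, and in 12.4% of all 32851 windows. TGCACNC was in 2 (Mt1 and Mt2) and TGCGCNC in 4 (Gclm, Mt1, Mt2 and Srxn1), against 12.6% and 15.4% of all windows. Stretches of the Gclm and Mt2 promoters are shown because these genes carried the clearest glutathione and metal differences; capitals mark the antioxidant core in Gclm, which reads on the strand opposite to the one printed, and the metal response cores in Mt2, of which the last reads on the opposite strand. The Gclm stretch spans bases 194 to 75 before the start (chr3:122245363-122245482, plus strand) with the match beginning 134 bases before it, and the Mt2 stretch spans bases 240 to 1 (chr8:94172378-94172617, plus strand) with matches beginning 223, 128 and 50 bases before it. In the Gclm stretch a match to TGCGCNC on the opposite strand shares bases with the antioxidant core, and in the Mt2 stretch an antioxidant core lies apart from the metal response cores; neither is in capitals. A match describes the letters and is no binding site.
Gclm: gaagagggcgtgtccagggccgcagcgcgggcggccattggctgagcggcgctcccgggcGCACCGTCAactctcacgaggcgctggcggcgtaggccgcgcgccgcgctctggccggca
Mt2: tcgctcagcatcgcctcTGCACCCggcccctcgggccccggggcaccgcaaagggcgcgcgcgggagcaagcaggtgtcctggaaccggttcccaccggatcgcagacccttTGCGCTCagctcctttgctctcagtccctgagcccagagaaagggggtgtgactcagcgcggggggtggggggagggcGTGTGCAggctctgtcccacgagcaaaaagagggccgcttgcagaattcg

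Genes of cholesterol synthesis had lower levels at 4 h along the whole pathway. The 17 tested enzymes all had lower means, the log2 differences ran from -1.09 to -0.13, and 15 of them were lower in replicate 3 as well. By replicate the list median was -0.69, -0.54 and -0.19. Replicate 3 started higher, its 0 h array lying above both others for 13 of the 17 genes. The 4 h and 0 h arrays of the 3 replicates overlapped for 16 of the 17, and 1 gene, Nsdhl, was lower without overlap (5.67% of all genes were lower without overlap). With replicate 3 as a batch term 11 of the 17 were lower and 0 higher at an unadjusted p under 0.05, against 5.39% and 3.82% of all genes.

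The early steps make mevalonate and its isoprene products. Hmgcs1, which forms HMG-CoA, had 4147, 4033 and 4659 at 0 h and 2281, 2253 and 4593 at 4 h. It fell in replicates 1 and 2, with a log2 difference of -0.84 ± 0.13 (SE, limma adjusted p = 0.0361), and was level in replicate 3 (-0.02). Its second probe set had 1555, 1441 and 1524 at 0 h and 901, 670.5 and 1949.7 at 4 h, lower in replicates 1 and 2 (-0.92 ± 0.16, adjusted p = 0.0412) and higher in replicate 3 (0.35). A pair of further Hmgcs1 probe sets was not called (adjusted p = 0.456 and 0.685 in replicates 1 and 2), being lower in replicates 1 and 2 and higher in replicate 3 (0.23 and 0.43). Idi1, the isopentenyl isomerase, had 1798, 1389.8 and 1911 at 0 h and 731, 797 and 1677 at 4 h and fell in replicates 1 and 2 (-1.02 ± 0.15, SE, limma adjusted p = 0.0243). Fdps, farnesyl diphosphate synthase, had 5201, 5239.7 and 7076 at 0 h and 3206, 2921 and 6388 at 4 h, a fall in replicates 1 and 2 (-0.76 ± 0.12, SE, adjusted p = 0.0361). Mvk, mevalonate kinase, had 306, 326 and 583 at 0 h and 168, 214 and 403 at 4 h, lower in all 3 replicates but not called (-0.65 ± 0.28, adjusted p = 0.427).

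The later steps build and trim the sterol ring. Fdft1, squalene synthase, fell on 1 of its probe sets, with 1764, 1756 and 2269 at 0 h and 1009, 968 and 1866 at 4 h (-0.81 ± 0.13, limma adjusted p = 0.0361), and its brightest probe set gave -0.81 ± 0.15 (adjusted p = 0.0815). Sqle, squalene epoxidase, had 2038, 1787 and 2659 at 0 h and 1298, 1413 and 1827 at 4 h, with differences of -0.64, -0.33 and -0.53, and was not called (adjusted p = 0.238 in replicates 1 and 2). Msmo1, the sterol methyl oxidase, had 1944, 1603 and 2735 at 0 h and 726, 533 and 2128 at 4 h, the largest difference of the list. It fell in replicates 1 and 2 (-1.46 ± 0.17, SE, limma adjusted p = 0.00665), with -0.36 in replicate 3 and adjusted p = 0.127 in the batch fit. A second tested Msmo1 probe set was not called and did not differ in this direction in replicates 1 and 2. Cyp51, the lanosterol demethylase, had 1649.8, 1549 and 1894 at 0 h and 879.5, 853 and 1552 at 4 h and fell in replicates 1 and 2 (-0.86 ± 0.13, adjusted p = 0.0284). On the brightest probe set of each of these 8 genes, though not on the other 3 of Hmgcs1, the 4 h array of replicate 3 was lower than its own 0 h array yet higher than the 4 h arrays of replicates 1 and 2.

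**Figure D3:**
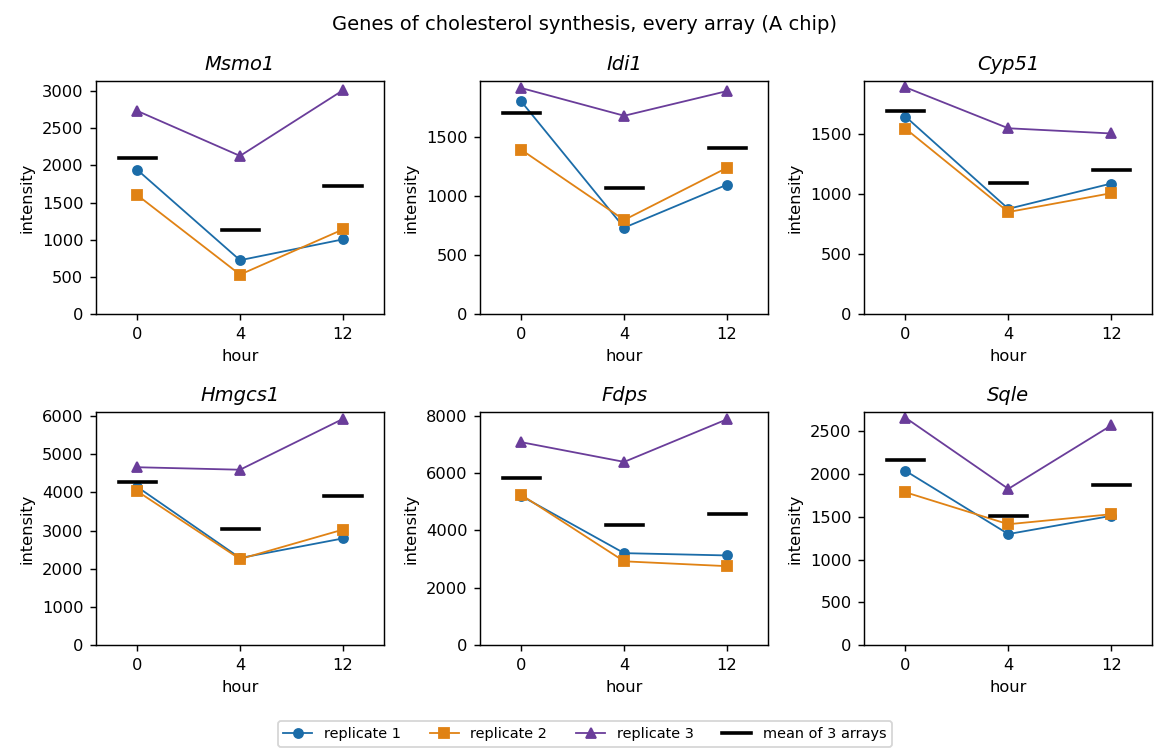
Intensity of 6 genes of cholesterol synthesis on every A array at 0, 4 and 12 h, with a line for each replicate and a bar for the mean of 3 arrays, on linear axes from 0. Replicates 1 and 2 drop together at 4 h in all 6 genes, and replicate 3 lies above them at 4 h in all 6.

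The sterol regulatory element that Srebps bind was searched as TCACCCCAC and, with 1 free base, as TCACNCCAC in 17 windows of 14 of the 17 genes. The window of Hmgcs1 had the first form, which is also a match to the second, no other window of the list had either, and 0.551% and 1.24% of all windows had one. The stretch is printed as the window of this list with the element, in capitals; it spans bases 187 to 68 before the start (chr13:119690164-119690283, plus strand) and the match begins 137 bases before it.
Hmgcs1: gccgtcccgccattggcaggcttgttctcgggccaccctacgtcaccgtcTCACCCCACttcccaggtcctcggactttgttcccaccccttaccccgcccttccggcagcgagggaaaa

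Genes that handle sterol outside the synthesis pathway lay closer to the median of all genes. The 14 tested genes of uptake, transport and regulation had a median of -0.07, and 5 of them had higher means. In the batch fit 2 were lower and 0 higher at an unadjusted p under 0.05, where 5.39% of all genes were lower and 3.82% higher. These 2 genes are named here after their values were seen. Stard4, a carrier of sterol between membranes, had 583, 398 and 742 at 0 h and 275, 239.5 and 740.2 at 4 h. Insig1, which holds the Srebp complex in the endoplasmic reticulum, had 2741, 2327 and 3132 at 0 h and 1614, 1749 and 3480.2 at 4 h on the B chip. Both were lower in replicates 1 and 2, whereas replicate 3 differed by 0.00 and 0.15. Srebf2, which encodes Srebp2 itself, had 983, 1407 and 1120.0 at 0 h and 1011, 1039 and 1063 at 4 h, overlapping. A second Srebf2 probe set had 1071, 1132 and 1422 at 0 h and 916, 1049 and 806 at 4 h, lower without overlap and not called (adjusted p = 0.729 in replicates 1 and 2). Fatty acid synthesis and desaturation had a median of -0.22 with 3 of 15 genes higher. Fads2, the delta-6 desaturase, had 740.3, 697 and 833 at 0 h and 396, 341 and 852 at 4 h and fell in replicates 1 and 2 (-0.91 ± 0.16, limma adjusted p = 0.0467), with no drop in replicate 3 on this probe set. Its other tested probe set was not called (-0.60 ± 0.18, limma adjusted p = 0.296 in replicates 1 and 2) and was lower in replicate 3 as well (-0.31). Scd2, a stearoyl-CoA desaturase, had 5197, 4967 and 5067 at 0 h and 3522, 3415 and 4818 at 4 h, lower without overlap but not called. Fasn, fatty acid synthase, had 1514, 1270.0 and 2191 at 0 h and 1026, 1199 and 1900.1 at 4 h, lower within each replicate and overlapping between groups.

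The amino acid response is the set of transporters, synthetic enzymes and transcription factors under Atf4. Means at 4 h were higher for 24 of its 27 tested genes, against 43.2% of all genes, and the list median was 0.30. The arrays did not overlap for 8 genes, all higher, where 3.82% of all genes were higher and 5.67% lower without overlap. In the batch fit 9 were higher and 0 lower at an unadjusted p under 0.05, where 3.82% of all genes were higher and 5.39% lower. Among transporters Slc7a5, the light chain of the LAT1 exchanger of large neutral amino acids, had 595, 807 and 1671 at 0 h and 1322, 1351 and 1793 at 4 h and rose in replicates 1 and 2 (0.92 ± 0.16, SE, limma adjusted p = 0.0412), with 0.10 in replicate 3, whose 0 h level was already higher than the 4 h level of the others. Its partner chain Slc3a2 had 2355, 3304 and 3147 at 0 h and 3698, 4934 and 3653 at 4 h, without overlap and not called. Among transcription factors Atf4 itself had 3553, 3164 and 3487 at 0 h and 4459.7, 4734 and 3757 at 4 h. Its dimer partner Cebpg had 416, 467 and 456 at 0 h and 592, 639 and 620.4 at 4 h. Neither gene's arrays overlapped between the hours. Atf5, another target that encodes a transcription factor, had 737, 731 and 715 at 0 h and 1272, 1289 and 773 at 4 h, with a small step in replicate 3. Trib3, a pseudokinase that feeds back on Atf4, had 109.8, 125 and 156 at 0 h and 230.2, 249 and 269 at 4 h, without overlap. Ddit3, which encodes the stress factor CHOP, had 228, 216 and 189 at 0 h and 259, 368 and 269.5 at 4 h, also without overlap. Nupr1, a small stress protein, had 409, 452 and 254 at 0 h and 859.9, 826 and 424 at 4 h and missed the threshold in replicates 1 and 2 (limma adjusted p = 0.0503). Mthfd2, the mitochondrial folate enzyme, had 1403, 1946 and 2061 at 0 h and 2144, 2551 and 3136 at 4 h, with 0.60, 0.38 and 0.60 by replicate. Asns, asparagine synthetase, was higher within each replicate by 0.33, 0.22 and 0.33 on its brightest probe set, at intensities of 2795, 2835 and 4108 at 0 h and 3529, 3311 and 5187 at 4 h. Another Asns probe set differed by 0.23, 0.36 and -0.07, slightly lower in replicate 3.

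The composite element of Atf4 and C/EBP factors was searched as TGATGNAAN. It was in 7 of 28 windows of 24 of the 27 genes, those of Asns, Chac1, Fgf21, Nupr1, Pck2, Trib3 and Vldlr, and in 3.95% of all windows. The Asns stretch is shown because the match lies close to the start site of a gene whose brightest probe set was higher in each replicate. It spans bases 120 to 1 before the start (chr6:7693210-7693329, minus strand), and the match, in capitals, begins 23 bases before it.
Asns: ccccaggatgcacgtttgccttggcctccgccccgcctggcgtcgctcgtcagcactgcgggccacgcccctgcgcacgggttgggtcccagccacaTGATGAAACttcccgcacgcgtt
Of the 7 genes, Vldlr, the receptor of very low density lipoprotein, had 201, 193 and 137 at 0 h and 398, 332 and 232 at 4 h without overlap. Fgf21, a secreted metabolic hormone, had 682, 638 and 337 at 0 h and 1069, 915 and 445 at 4 h, higher in each replicate from a lower start in replicate 3.

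**Figure D4:**
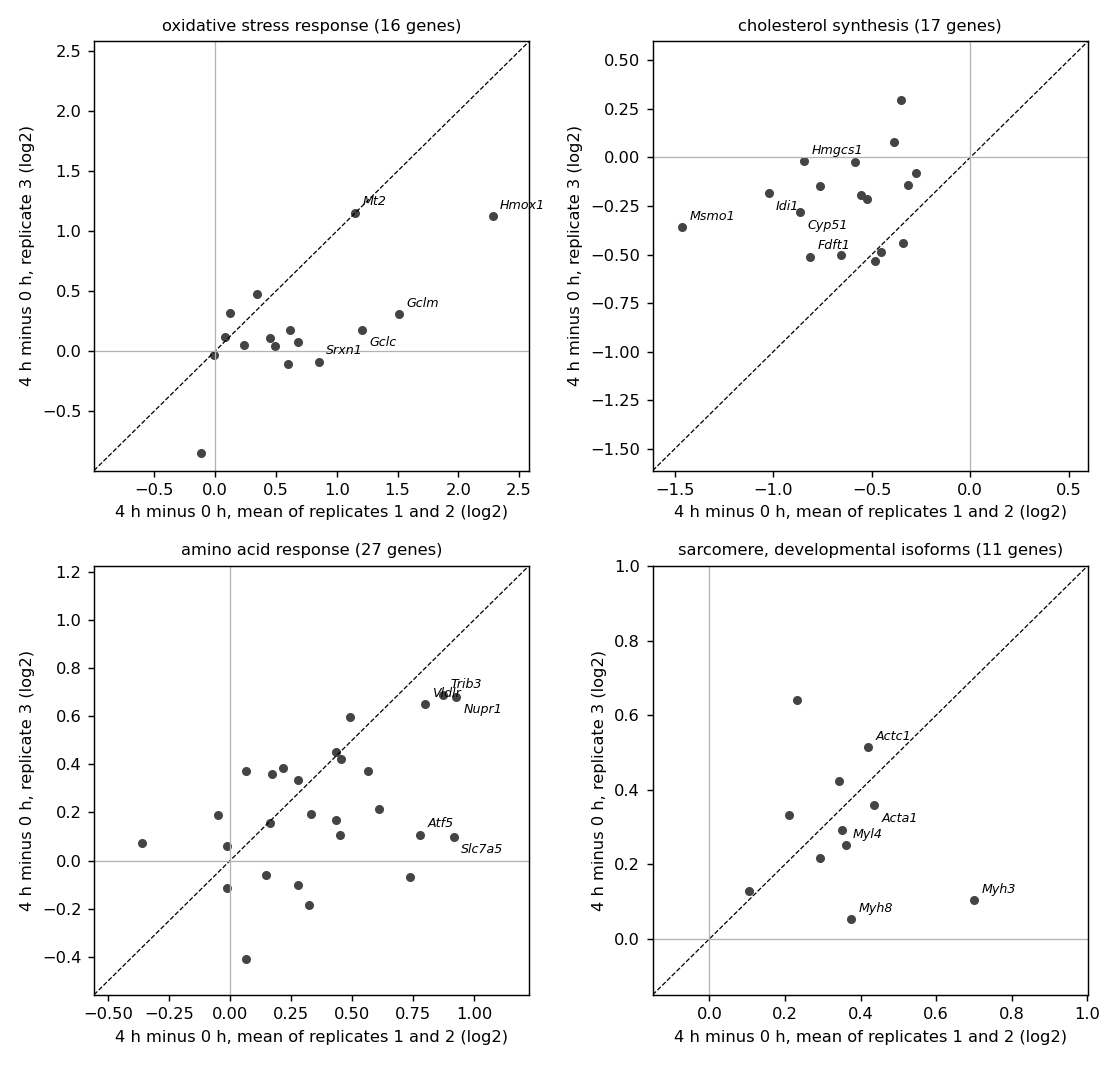
Each point is a gene, with the mean 4 h minus 0 h difference of replicates 1 and 2 on the horizontal axis and the difference in replicate 3 on the vertical axis, log2(intensity + pseudocount), in 4 lists; the dashed line marks equal change and the axes differ between panels. Hmox1, Gclm, Gclc and Msmo1 lie far from the line towards a smaller change in replicate 3, whereas Mt2, Trib3 and Vldlr lie near it.

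Muscle genes already marked the cultures at 0 h: all 15 markers of the muscle lineage were bright enough to be tested, and their summed intensity was 74451 to 82836 at 0 h and 90946 to 96913 at 4 h, without overlap. The brightest markers weigh most in this sum, which was taken without further scaling. Means at 4 h were higher for 13 of the 15 and lower for 2, and by replicate 4, 4 and 3 of them were lower. In bulk RNA more muscle cells and more RNA per cell cannot be told apart. The developmental sarcomere isoforms had higher means at 4 h for all 11 tested genes and in each of the 3 replicates, with list medians of 0.39, 0.35 and 0.29. The arrays did not overlap for 5 of the 11, all higher, as for 3.82% of all genes. Myh3, embryonic myosin heavy chain, had 3624, 3367 and 5236 at 0 h and 5286, 6139.6 and 5632 at 4 h and rose in replicates 1 and 2 (0.70 ± 0.12, SE, limma adjusted p = 0.038). Actc1, cardiac actin of immature muscle, had 11210.0, 13217 and 10713 at 0 h and 15731, 16899.7 and 15315 at 4 h, with differences of 0.49, 0.35 and 0.51. For Tnnc1, slow troponin C, the intensities were 8349, 9005 and 9587 at 0 h and 10118, 11986 and 12866 at 4 h. Acta1, skeletal actin, had 8196, 10678 and 11393 at 0 h and 11458, 14016 and 14612 at 4 h. None of the last 3 was called (limma adjusted p = 0.884, 0.908 and 0.884 over all arrays), although each was without overlap. Myh8, the perinatal heavy chain, was dim in replicates 1 and 2, with 49.7, 36.2 and 177 at 0 h and 51.7, 77.9 and 185 at 4 h.

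Adult fast isoforms had a median of 0.24, with 7 of 8 higher and 0 at an unadjusted p under 0.05 in the batch fit. Mylpf, the fast light chain, had 7834, 9489 and 9342 at 0 h and 9971, 11896 and 12326 at 4 h without overlap. In excitation-contraction coupling, the machinery that releases calcium from the sarcoplasmic reticulum, 5 of 24 genes were higher and 1 lower without overlap (3.82% and 5.67% of all genes), though the list median was 0.07. Trdn, triadin, which ties calsequestrin to the release channel, had 112, 53.5 and 109 at 0 h and 286, 217 and 191 at 4 h, a difference of 1.14 ± 0.31 (SE, limma adjusted p = 0.884). Ryr1, the release channel, had 579, 642 and 454 at 0 h and 1037, 1094 and 491 at 4 h, with little step in replicate 3. Jph2, a junctophilin that holds the membranes together, went the other way without overlap, with 663, 766 and 605 at 0 h and 492, 475 and 468 at 4 h. The 13 tested muscle transcription factors had a median of 0.07. Myog, myogenin, which acts as myoblasts leave the cycle, had 10436, 10929.7 and 9594 at 0 h and 11523, 10650.3 and 10186 at 4 h. Myod1, which sets the lineage, had 8182, 9300.3 and 5693 at 0 h and 8992, 8808 and 7098 at 4 h. The hours overlapped for both genes, and the differences of 0.06 and 0.12 turned to -0.15 and -0.016 under quantile normalization. Myf5, an early lineage factor, had 518, 314 and 279 at 0 h and 483, 414 and 368 at 4 h. Mef2d, a cofactor of the myogenic factors, had 997, 943 and 940.5 at 0 h and 1414, 1304 and 1052 at 4 h, higher without overlap. Myf6, a factor of maturing fibres, was dim and lower in each replicate, with 160.0, 174 and 56 at 0 h and 129, 108 and 11.9 at 4 h. Genes of muscle energy supply had lower means for 11 of 14, among them Art1, an ADP-ribosyltransferase of muscle, with 305, 358 and 322 at 0 h and 237, 189 and 266 at 4 h.

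The Id genes, targets of BMP signals had lower levels at 4 h. In the TGF-beta and BMP list 5 of 14 tested genes were lower without overlap, where 5.67% of all genes were, and the list median was -0.20. Means at 4 h were lower for 9 of the 14 and higher for 5. Id1 had 4609.5, 5918 and 3883 at 0 h and 3571, 4009 and 2990.2 at 4 h. Id2 had 1421, 1726 and 1353 at 0 h and 1014, 902 and 901 at 4 h. Id3 had 4094, 5299.9 and 3119 at 0 h and 3162, 3225 and 2657 at 4 h. The Id products pair with E proteins and keep them from myogenic factors. Id4 had 354, 447 and 271 at 0 h and 219.5, 248 and 236 at 4 h. All 4 were lower within every replicate, and only Id2 and Id4 were without overlap between the groups. Atoh8, another BMP target, had 412, 560.2 and 374 at 0 h and 308, 294 and 305 at 4 h, without overlap. Smad7, the inhibitory Smad that closes the loop, had 640.1, 782 and 699 at 0 h and 554, 602 and 530.0 at 4 h, also without overlap. Limma called none of them (the smallest adjusted p was 0.28, for Id3, in the batch fit, and 0.189, for Id4, in replicates 1 and 2). Bmp4, one of the ligands, was dim in replicates 1 and 2, with 60.1, 53.2 and 184 at 0 h and 54.5, 59.8 and 383 at 4 h. At 12 h the arrays held 2611, 2397 and 1998 for Id3, lower in each replicate than at 4 h. Atoh8 was likewise lower at 12 h, with 247, 201 and 192.

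Immediate early transcription factors, which serum and growth factors induce within minutes, had a median of -0.12, with 4 of 26 lower and 1 higher without overlap (5.67% and 3.82% of all genes). In the batch fit 6 were lower and 0 higher at an unadjusted p under 0.05 (background 5.39% and 3.82%). Junb, a subunit of AP-1, had 949.9, 1109.8 and 973 at 0 h and 650.5, 498 and 552 at 4 h, a difference of -0.81 ± 0.17 (SE) that was negative in the 3 replicates (-0.53, -1.11 and -0.79) and did not pass (limma adjusted p = 0.884, and 0.127 with the batch term). Jun, its partner, went the other way with 5419, 5389 and 5672 at 0 h and 6098, 6307 and 6350.3 at 4 h. Ier2, a nuclear protein induced by growth factors, had 1053, 1254 and 2242 at 0 h and 991, 870.0 and 894 at 4 h. Klf10, a TGF-beta-inducible factor, had 1595, 1399 and 1145 at 0 h and 1140.1, 1032 and 901 at 4 h. Both were lower without overlap. Fos and Egr1 were lower most in replicate 3. Fos, the other part of AP-1, had 684, 502 and 392 at 0 h and 519, 390.3 and 97.4 at 4 h. Egr1, a zinc finger factor, had 3379.7, 4108 and 4769 at 0 h and 3615, 3842 and 1789 at 4 h, so that its difference in replicates 1 and 2 was 0.00. Myc had 589.6, 631 and 1129.5 at 0 h and 661, 520.5 and 939.6 at 4 h, and its sign turned when replicate 3 was left out at 0 h (0.16) or replicate 2 at 4 h (0.069). Genes of ERK and growth factor feedback were lower on balance (median -0.13, 2 of 17 higher). Errfi1, an inhibitor of the EGF receptor, had 1437, 1882 and 935 at 0 h and 1121, 1302 and 604 at 4 h. Hbegf, a ligand of that receptor, had 864, 955 and 1488 at 0 h and 597, 739 and 1085 at 4 h. Ccnd1, cyclin D1, which growth factors keep high, had 3108, 3584 and 4200.4 at 0 h and 2282, 2659.5 and 3906 at 4 h. On these probe sets all 3 were lower within every replicate and overlapped between the hours. Another Ccnd1 probe set differed by -0.53, -0.42 and 0.19 by replicate, and a further Ccnd1 probe set by -0.92, -0.54 and -0.10. Dusp6, a phosphatase of ERK, had 278, 228 and 708 at 0 h and 179.9, 254 and 368 at 4 h; without the 0 h array of replicate 3 its difference was 0.027.

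Insulin-like growth factors and FoxO targets had a median of 0.14, with 14 of 21 genes higher and 5 of them at an unadjusted p under 0.05 in the batch fit (43.2% and 3.82% of all genes). Fbxo32, atrogin-1, a ubiquitin ligase of muscle atrophy and a FoxO target, had 1087, 1182 and 417 at 0 h and 1976, 2254 and 466 at 4 h. It rose in replicates 1 and 2 (0.88 ± 0.14, SE, limma adjusted p = 0.038) and differed by 0.15 in replicate 3. A brighter Fbxo32 probe set on the B chip had 4498, 3611 and 1411 at 0 h and 9299, 7162 and 1743 at 4 h and was not called (1.01 ± 0.17, adjusted p = 0.204 in replicates 1 and 2). Trim63, MuRF1, the other ligase of that kind, had 1703, 1833 and 2633 at 0 h and 2128, 2285 and 2850.3 at 4 h on the B chip and was not called. Igf1 had 212, 140.1 and 95.9 at 0 h and 393, 345 and 144 at 4 h, higher within each replicate. Igf2, which myoblasts secrete as they differentiate, had 9939, 11285 and 7457 at 0 h and 12517, 15294 and 7997 at 4 h. The difference of Igf2 was 0.29 on this probe set and -0.20 on another.

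Ribosomal protein genes had a median of 0.25, 35 of 39 were higher, against 43.2% of all genes, and 14 were higher and 1 lower without overlap (3.82% and 5.67% of all genes), but under quantile normalization the median was -0.0078. Rpl7 had 9043, 7536 and 8135 at 0 h and 10343, 10873 and 12223 at 4 h, and another of its probe sets differed by -0.21. Probe sets of this family can also match pseudogenes. In ribosome biogenesis the median was 0.00, yet Nop58, a core protein of the snoRNPs that methylate ribosomal RNA, had 1081, 1169 and 881 at 0 h and 1384, 1634 and 1796 at 4 h. Ncl, nucleolin, had 4765, 4568 and 5623 at 0 h and 6035, 6204 and 8066 at 4 h. Both were higher without overlap and not called (limma adjusted p = 0.884 and 0.963).

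S phase genes, those of DNA replication, had lower means for 33 of 35, and 35 of 35 were highest in replicate 3 at 0 h. The median of -0.25 became 0.042 without the 0 h array of replicate 3, while the replicates taken one by one gave -0.29, -0.20 and -0.20. Mcm3, a subunit of the replicative helicase, fell on 1 probe set in replicates 1 and 2, with 757, 797 and 1127 at 0 h and 309, 387 and 826 at 4 h (-1.10 ± 0.17, SE, limma adjusted p = 0.0361). That probe set carries the suffix Affymetrix gives to probes that may match other transcripts. The brightest Mcm3 probe set, whose name also carries a suffix (_s_at), had 906, 775 and 2238 at 0 h and 544, 618 and 1451 at 4 h and was not called (adjusted p = 0.26). Mcm3 probe sets without a suffix gave -0.45 ± 0.37, -0.31 ± 0.23 and -0.58 ± 0.20 in replicates 1 and 2 and were not called (limma adjusted p = 0.732, 0.7 and 0.325). Cdc6, which loads the helicase, had 166, 165 and 466 at 0 h and 104, 27.1 and 222 at 4 h. Ccne2, cyclin E2, had 191, 181 and 408 at 0 h and 88.6, 113 and 331 at 4 h. Both were lower within each replicate and overlapped between the hours. The mitosis genes had a median of -0.02 (-0.17, -0.00 and 0.17 by replicate), which moved to 0.28 when replicate 3 was left out at 0 h, and to 0.23 and 0.15 when replicate 1 or replicate 2 was left out at 4 h.

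The lists that follow had medians between -0.14 and 0.07. The circadian clock had a median of -0.01. Arntl, which encodes BMAL1, was lower without overlap, with 420.4, 258 and 391 at 0 h and 201, 239 and 228 at 4 h. Per1 had 149, 226 and 146 at 0 h and 119, 209 and 206 at 4 h, overlapping. Glucocorticoid targets had a median of 0.00, with means higher for 5 of 11 genes and lower for 6. Zbtb16, a transcription factor that glucocorticoids induce, was lower without overlap on the B chip, with 368, 391 and 443 at 0 h and 236, 127 and 147 at 4 h (limma adjusted p = 0.663). Mt2, described above with the oxidative stress list, is also a member of this list and was its highest, again without overlap. Among cytosolic chaperones Stip1, a cochaperone of Hsp90, was lower without overlap, with 2045, 2237 and 2447 at 0 h and 1847, 1695 and 1896 at 4 h. Hspa5, the chaperone BiP of the endoplasmic reticulum, had 9165, 8814 and 9434 at 0 h and 9307, 10322 and 11461 at 4 h, and its difference of 0.18 turned to -0.040 under quantile normalization. Of the p53 targets Cdkn1a, the cell cycle inhibitor p21, had 9266, 9860.3 and 7879.6 at 0 h and 11317, 9624 and 8980.5 at 4 h, also turning sign under quantile normalization. Glycolysis and hypoxia genes had a median of -0.07, with Egln3, an oxygen-sensing prolyl hydroxylase, lower in each replicate (718, 679.8 and 1709 at 0 h and 450.4, 419 and 1441 at 4 h). Collagens and their processing enzymes had 14 of 26 genes higher, and the interferon and NF-kappaB lists, of which 6 and 10 genes were bright enough to test, had medians of -0.08 and -0.14, with 8 of the 10 NF-kappaB genes lower.

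Outside the lists, the largest differences without overlap were named by rule. On the A chip Dst, dystonin, a linker of the cytoskeleton, had 318, 269 and 254 at 0 h and 682, 609.8 and 411 at 4 h and rose in replicates 1 and 2 (1.07 ± 0.17, SE, limma adjusted p = 0.0379); its adjusted p of 0.115 in the batch fit was the smallest on A. Tshz1, a zinc finger protein, had 173, 248 and 303 at 0 h and 571, 533 and 396 at 4 h on the called probe set, without overlap, and rose by 1.30 ± 0.22 (SE, adjusted p = 0.038). Kmt2a, a histone H3 lysine methyltransferase, had 204, 288 and 231 at 0 h and 484, 617 and 354 at 4 h and was not called. Xist, the RNA of X inactivation, had 1648, 1447 and 1824 at 0 h and 3174, 2760.4 and 2656 at 4 h, also without overlap, and rose by 0.93 ± 0.14 (SE, adjusted p = 0.0312). Sh3glb1, endophilin B1, had 2364, 2506 and 1840.3 at 0 h and 3752, 4288 and 2230.2 at 4 h, overlapping, and rose by 0.71 ± 0.12 (adjusted p = 0.041), whereas its brightest probe set gave 0.23 ± 0.11 (0.497) and another 0.09 ± 0.12 (0.872). Tmem119, a membrane protein of osteoblast and myoblast lineages, had 1732, 2059.6 and 1149 at 0 h and 969, 1138 and 973 at 4 h and fell in replicates 1 and 2 (-0.83 ± 0.14, adjusted p = 0.038). Among uncalled genes with lower levels, Lasp1, an actin-binding LIM protein, had 2262, 1613 and 1746 at 0 h and 1170.1, 1307 and 731 at 4 h. Gdf2, which encodes BMP9, had 136, 243 and 170.2 at 0 h and 104, 47.9 and 76.4 at 4 h. The others named by the rule, Mif4gd, Gprc5c, Ercc4, Slc27a1 and Tmem191c, had 0 h means between 66.9 ± 11.8 (SD, n = 3) for Gprc5c and 176 ± 26.1 for Slc27a1, and for Lasp1, Gprc5c, Ercc4 and Slc27a1 another probe set of the same gene gave the opposite sign.

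On the B chip Sox21, a transcription factor of the SoxB2 group, had 1192, 1393 and 2180.1 at 0 h and 519, 437 and 777 at 4 h, with differences of -1.12, -1.56 and -1.43. Its adjusted p of 0.0816 in the batch fit was the smallest on B and did not pass, and over all arrays it was 0.663. Dus2, a tRNA dihydrouridine synthase, had 812, 495 and 959 at 0 h and 206, 225 and 393 at 4 h. Clmn, calmin, had 575, 336 and 506 at 0 h and 79.6, 242 and 199.8 at 4 h, and another Clmn probe set differed by 0.41. Rimbp3 had 248, 205 and 241 at 0 h and 41.6, 56.1 and 58.8 at 4 h. Of the higher genes Kptn, kaptin, a subunit of the KICSTOR complex that links nutrients to mTORC1, had 86.8, 45 and 101 at 0 h and 291, 264 and 347 at 4 h. Krt78, a type II keratin, had 117, 398 and 97.5 at 0 h and 516, 721 and 636 at 4 h. Fam227a had 419, 109 and 101 at 0 h and 507, 466 and 534 at 4 h. In all 7 genes the hours were without overlap, and limma called none of them. Gm19935, a predicted gene, had 85, 77.8 and 96.6 at 0 h and 290.0, 246 and 491 at 4 h, likewise without overlap.

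Levels at 4 h that differed from both neighbouring hours were tested against the mean of 0 h and 12 h, which shares the 4 h and 0 h arrays with the comparison above. Limma called 0 probe sets on either chip (593 and 879 at an unadjusted p under 0.05), and 0 with the batch term (1226 and 1282). In replicates 1 and 2 alone it called 14 on A, 7 higher and 7 lower, and 0 on B (1403 at an unadjusted p under 0.05). The rises were led by Hmox1 (adjusted p = 0.0131), Gclm (0.0161), Gclc (0.0284), Srxn1 (0.0284) and Mt2 (0.049), and the falls included Msmo1 (0.0284), Fdft1 (0.049) and Idi1 (0.049). Ckm, the muscle creatine kinase, Cav3, caveolin of muscle, Egln3, Marcks and Msl2 were the other named genes. Over all 3 replicates Mt2 and, on the called probe set, Tshz1 were higher at 4 h than every array of both hours. Cirbp, a cold-inducible RNA-binding protein, had 585, 632 and 537 at 0 h, 957, 821 and 709 at 4 h and 509, 457 and 557 at 12 h. Kdm6a, a demethylase of histone H3, had 334, 227 and 313 at 0 h, 604, 380.5 and 402 at 4 h and 378, 272 and 274 at 12 h, and another of its probe sets differed by -0.22 between 4 h and 0 h. Fam76b was also above both hours. On the lower side were Gdf2, Gprc5c, Tmem191c and Neto1, the last with 131, 103 and 135 at 0 h, 65.6, 90.8 and 52.6 at 4 h and 232, 231 and 115 at 12 h. On the B chip Kptn, Zdhhc22, 0610025J13Rik and 1110064A23Rik were higher and Rimbp3, Dscaml1, Tssk3 and 4930417O22Rik lower than at both hours, with 0 h means from 77.6 ± 29.2 (SD, n = 3) for Kptn to 371 ± 99.3 for Dscaml1.

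Summed markers of other cell types overlapped between the hours. The sum of the smooth muscle and pericyte list was nevertheless higher at 4 h within every replicate, with 21637, 24224 and 16532 at 0 h and 25274, 28631 and 19764 at 4 h. By member the list did not rise: of its 8 tested genes 3 had higher means at 4 h and 5 lower, with a median of -0.06. Acta2, smooth muscle actin, which cultured myoblasts also express, made up most of that sum and was higher without overlap, with 11585, 13519.9 and 10306 at 0 h and 14135, 17020.4 and 13575.5 at 4 h. The sum of the tendon and cartilage list was slightly lower within every replicate, with 1988, 2665 and 1788 at 0 h and 1915, 2647 and 1749.7 at 4 h. Of its 4 tested genes 2 were lower and 2 higher in each replicate. The summed intensities of the endothelial list were 541.2 to 648.6 at 0 h and 584.2 to 615.3 at 4 h with 3 of 12 markers tested, and those of the fibroblast list 4137 to 4788 and 4052 to 5170.3 with 4 of 12. The lists of adipocyte, Schwann cell and neuron, and keratinocyte also overlapped, and 0 of 4 erythroid markers on the arrays were bright enough to test. Their part in the differences above was not tested.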

How the data were processed

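Intensity values, 1 per probe set and array, were deposited by the authors for the A and B chips. Per the labels a standard Affymetrix protocol was used. The sources used here do not give the summarising software, its scaling or any detection calls. Every array has a trimmed mean (2% at each end) of 500.1 to 500.2. Values were set to log2(intensity + pseudocount), the pseudocount being the 20th percentile of the chip, with no further scaling. The upper 60% of probe sets by mean were tested on each chip alone, over its 15 arrays of 5 hours, with limma 3.58.1 (R 4.3.3) and Benjamini-Hochberg adjustment, at 0.05. The same model was fitted with replicate 3 as a batch term, with the replicate number as a block, and in replicates 1 and 2 alone.

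Probe sets were named from GEO's platform annotation through RefSeq (GRCm38.p6), which changed 0 symbols. On A 20380 of 22690 probe sets had 1 gene and on B 14661 of 22575, while 691 and 245 had several and 1555 and 7605 none. Control probe sets, 64 on each chip, were left out. A gene was read from its brightest tested probe set on A, or on B where A had none. Same-numbered arrays deviated from their hour's mean together (correlations of 0.621, 0.445 and 0.726 on A and 0.233, 0.132 and 0.432 on B), so the numbers were taken to pair the arrays, from the data and not the labels. On B 0 h replicate 2 with 4 h replicate 1 gave 0.179, above the 0.132 of replicate 2 with itself, and the difference between replicates 1 and 2 correlated at 0.379 on A and 0.027 on B, so the pairing on B rests mainly on replicate 3.

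The genes named were those called in any of the 4 fits, the largest differences without overlap (8 each way on A, 4 on B), 29 chosen genes, up to 4 members of each list by the batch fit's p and up to 2 against its majority, and the 4 highest and 4 lowest per chip that differed from both 0 h and 12 h. Nsdhl, Mvk, Fth1, Txnrd1, Mt1, Nqo1, Gsr, Gsta4, Atf4, Atf5, Cebpg, Nupr1, Slc3a2, Atoh8, Smad7, Trim63, Myh8 and Ckm fall outside this rule and were named after their values were seen. Some of the 29 are not reported here. The members and lists were chosen with earlier results of these data known. The interaction test and the motifs TGACNNNGC, TGCACNC and TGCGCNC were added after the values were seen. The fits were tested on simulated data.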

Additional observations from a re-analysis of the deposited data

Results flagged for a closer look

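In 2 genes the 4 h change of replicate 3 differed from that of replicates 1 and 2 by the interaction test. Max, the partner of the Myc proteins, had 110.4, 97.9 and 556 at 0 h and 134, 171 and 71.0 at 4 h in replicates 1, 2 and 3, so that the change of replicate 3 minus that of the others was -2.99 (limma adjusted p = 0.014). Rbbp4, a histone-binding subunit of chromatin complexes, had 3791, 3694 and 792 at 0 h and 3201, 3206 and 3622 at 4 h, a difference in change of 2.38 (limma adjusted p = 0.00992). In both genes the 0 h array of replicate 3 was the one apart, and the 12 h array of replicate 3 was close to those of replicates 1 and 2 for Max (153 against 125 and 113) and above them for Rbbp4 (3359 against 2821 and 2558).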

How the results depend on the processing

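Limma called 0 probe sets between 4 h and 0 h over all 3 replicates under every scaling, pseudocount, filter and left-out array tried on A and on B (0 without each array in turn). With the replicate number as a block, which pairs the arrays, it also called 0 on both chips, with 1320 and 1110 at an unadjusted p under 0.05, and it changed no other call. Replicates 1 and 2 alone gave 24 on A, 25 with quantile normalization and 7 with no filter on dim probe sets. Against the mean of 0 h and 12 h they gave 14 on A, 6 with quantile normalization and 2 with no filter, and on B 1 with quantile normalization. The interaction and the motifs were chosen after seeing the data.

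Of 1642 alternative values for 73 genes 38 had the other direction, and the cause was not tested. Quantile normalization, with or without the batch term, gave -0.061 for Cdkn1a, -0.040 for Hspa5, -0.016 for Myod1 and -0.15 for Myog, and in replicates 1 and 2 alone -0.043, -0.034, -0.086 and -0.12. Egr1 was 0.00023 in replicates 1 and 2 alone, with or without the filter. Per1 was -0.18 there with or without the filter, -0.15 there with quantile normalization, -0.080 with array quality weights and -0.10 to 0.24 without each array in turn. Left-out arrays gave -0.34 to 0.16 for Myc, -0.73 to 0.027 for Dusp6 and -0.080 to 0.27 for Myod1. Other probe sets of the gene gave 0.41 for Clmn, 0.027, 0.41 and 0.14 for Ercc4, 0.13 for Gprc5c, -0.13 and -0.18 for Hspa5, -0.20 for Igf2, -0.22 for Kdm6a, 0.019 for Lasp1, -0.21 for Rpl7 and 0.16 for Slc27a1. Over 19 alternatives the medians of cholesterol synthesis (-0.73 to -0.36), oxidative stress (0.30 to 0.57), the amino acid response (0.24 to 0.38), developmental sarcomere isoforms (0.15 to 0.46) and TGF-beta and BMP targets (-0.33 to -0.16) kept their sign. With 3 arrays an hour of unstated origin, and 1 of the 3 replicates apart, even the difference of Hmox1 did not pass over all 3, and probe sets near the pseudocount have compressed differences.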
